A study of Mus musculus with 6 samples.

Results

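Erythroid transcription factors and receptors are the genes that commit blood progenitors to the red cell lineage and carry its signals. The genes described here were *Gata1*, *Gata2*, *Klf1*, *Gfi1b*, *Tal1*, *Nfe2*, *Epor*, *Tfrc*, *Lmo2* and *Zfpm1*, chosen by name. Of these 10, a feature of that name was found for 9, among 48733 named genes in all. *Epor* had no named feature, and an unnamed feature at its position is described separately.

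The study sequenced RNA of 3 libraries labelled bone and 3 labelled osteoblasts, all from CC016/GeniUnc, a Collaborative Cross inbred strain, with no genetic change. The bone label stands for bone of the femur after the marrow had been spun out at 2000 xg for 30 s. The osteoblasts label stands for cells grown from that marrow and kept for 8 days in medium with dexamethasone (10 nM), ascorbic acid (50 µg/ml) and beta-glycerophosphate (10 mM). The age of the mice is not given in the sources used here, and the labels do not say which bone and osteoblast libraries came from the same mouse, so p-values measure the spread between these libraries.

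GATA1 is the zinc finger factor that switches on most red cell genes, and FOG1, the product of *Zfpm1*, is its partner. GATA2 acts earlier, in stem and progenitor cells and in mast cells, and gives way to GATA1 as red cells mature. TAL1 and LMO2 join GATA factors in one complex on DNA, and KLF1 binds CACCC boxes of globin and membrane genes. EPOR is the receptor of erythropoietin, the hormone that keeps red cell precursors alive.

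The DNA just before a RefSeq start is shown for 4 of these genes, *Gata1*, *Klf1*, *Gfi1b* and *Epor*, which were high and low in the same libraries. *Gata2*, *Tal1* and *Zfpm1* were also highest in those libraries, and their windows are not printed. Among these unprinted windows, only the first of *Tal1* held a GATA motif. Each run is 130 bases long and ends with the base before a RefSeq start (GRCm38.p6), written 5′ to 3′ on the strand of the gene. Capitals mark a GATA motif (GATAA or GATAG after an A or a T) or a CACCC box (CCNCNCCC), searched on both strands, and overlapping boxes run together.
*Gata1*, chrX:7967911-7968040, minus strand: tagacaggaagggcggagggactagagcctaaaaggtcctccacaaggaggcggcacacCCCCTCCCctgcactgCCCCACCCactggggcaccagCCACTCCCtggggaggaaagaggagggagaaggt
*Klf1*, chr8:84901852-84901981, plus strand: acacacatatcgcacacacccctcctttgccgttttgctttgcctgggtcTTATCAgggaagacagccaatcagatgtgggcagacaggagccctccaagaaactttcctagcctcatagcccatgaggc
*Gfi1b*, chr2:28621983-28622112, minus strand: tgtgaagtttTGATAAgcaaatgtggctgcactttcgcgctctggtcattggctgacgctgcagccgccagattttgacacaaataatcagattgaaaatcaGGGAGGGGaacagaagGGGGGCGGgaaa
*Epor*, chr9:21963577-21963706, minus strand: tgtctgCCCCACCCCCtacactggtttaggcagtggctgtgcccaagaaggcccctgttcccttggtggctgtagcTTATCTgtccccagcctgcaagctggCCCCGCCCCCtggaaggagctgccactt

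The GATA motif began 80 bases before the start in *Klf1*, 120 in *Gfi1b* and 54 in *Epor*. None lay in the 250 bases searched before the *Gata1* start used here. *Gata1* held 3 CACCC boxes there and *Klf1* held none. That *Gata1* start lies inside the RefSeq span of the gene, 7959260 to 7976663, and DNA before the outer end was not searched. RefSeq windows were found for 8 of the 10 genes, 11 windows in all. Of these 11, 4 held a GATA motif, against 26.5% of all 32851 windows of that length, and 9 held a CACCC box, against 45.9% of all. The E-box CAGNTG lay in 3 of the 11, against 44.8%, and the NF-E2 word TGAGTCA in 0, against 4.46%. These counts describe the letters in the windows and say nothing of binding.

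The libraries have to be described before the results, since their blood genes did not follow the labels. Levels are given as FPKM, fragments scaled to transcript length and library size. *Hbb-bt*, an adult beta-globin gene whose feature also spans its neighbour *Hbb-bs*, exceeded 1000 FPKM in bone replicate 3 and in osteoblasts replicates 2 and 3, called the 3 *Hbb-bt*-high libraries from here on. In the 3 *Hbb-bt*-low libraries, bone replicates 1 and 2 and osteoblasts replicate 1, it was at most 7.05 FPKM. The aligned sequence implied by coverage and FPKM was 2.03 to 3.39 Gb per library, and the floor of 3 read pairs, for a transcript length of 1 kb, was then 0.133 to 0.222 FPKM, which covers counting error only. Unnamed features made up 71.5% of summed FPKM in bone replicate 2 and 65.0% in osteoblasts replicate 1, against 27.4 to 30.7% elsewhere. Named genes summed to less FPKM in those 2 libraries than elsewhere, so values scaled to the sum of named genes are added where it matters. The share of reads in unnamed features was not computed. The scaling multiplies the 3 *Hbb-bt*-high libraries by 0.743 to 0.789, and their sums include the blood genes. Whether each library carries the right label cannot be told from these files. No library was moved to another label, every value of osteoblasts minus bone holds for the labels as deposited, and the high and low libraries were not tested against each other.

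*Gata1* and its partner *Zfpm1* were high in the same 3 libraries. *Gata1* (Chr. X from 7959260 to 7978646, minus strand) stood at 0.0027, 0.016 and 61.6 FPKM in the bone libraries, in the order of replicates 1, 2 and 3, and at 0, 61.9 and 55.5 FPKM in the osteoblast libraries. The high values differed among themselves by a factor of 1.11, and the low ones were all under the floor. In a bulk library, fewer cells of a type and less RNA per cell cannot be told apart. *Zfpm1* (Chr. 8 from 122282141 to 122337251, plus strand) stood at 1.92, 0.728 and 68.0 FPKM in bone and at 1.72, 43.0 and 40.6 FPKM in osteoblasts. Bone replicate 3 thus had the most *Zfpm1*, while its *Gata1* lay between those of osteoblasts replicates 2 and 3. The ratio of *Zfpm1* to *Gata1*, which no scaling of a library changes, was 1.11 in bone replicate 3 against 0.695 and 0.731 in the osteoblast libraries. The *Zfpm1* feature lies inside one named *Usp10* on the same strand, from 119910360 to 124345724, and how reads were divided between them was not tested.

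*Gata2*, the factor of earlier progenitors, was below 5 FPKM in every library. Its feature (Chr. 6 from 88193891 to 88207032, plus strand) stood at 1.62, 0.467 and 3.49 FPKM in bone and at 0.737, 4.68 and 4.24 FPKM in osteoblasts. The values under the labels overlapped, and the lowest *Hbb-bt*-high library had 2.16 times the highest *Hbb-bt*-low one, or 1.47 times after scaling to named genes. *Gata1* was 17.6 times *Gata2* in bone replicate 3 and 13.2 and 13.1 times in osteoblasts replicates 2 and 3. In bone replicates 1 and 2 that ratio was 0.0017 and 0.034, and in osteoblasts replicate 1 *Gata1* was listed at 0. Between the labels, the log2 of (*Gata1* + 1)/(*Gata2* + 1) was 0.63 ± 2.78 (SD, n = 3) in bone and 2.04 ± 2.45 (SD, n = 3) in osteoblasts (exact permutation test, two-sided, p = 0.7, where 0.1 is the smallest p that 3 against 3 allows).

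Mast cells and basophils also use GATA2. Their 6 marker genes summed to 3.17 to 3.51 FPKM in the 3 *Hbb-bt*-low libraries, where *Cpa3*, *Ms4a2*, *Fcer1a* and *Prss34* were each at 0, and to 53.5 to 67.9 FPKM in the 3 high ones. The mast cell protease *Cpa3* itself reached only 1.06 to 1.63 FPKM. The part of these cells in the *Gata2* level was not tested.

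**Figure D1:**
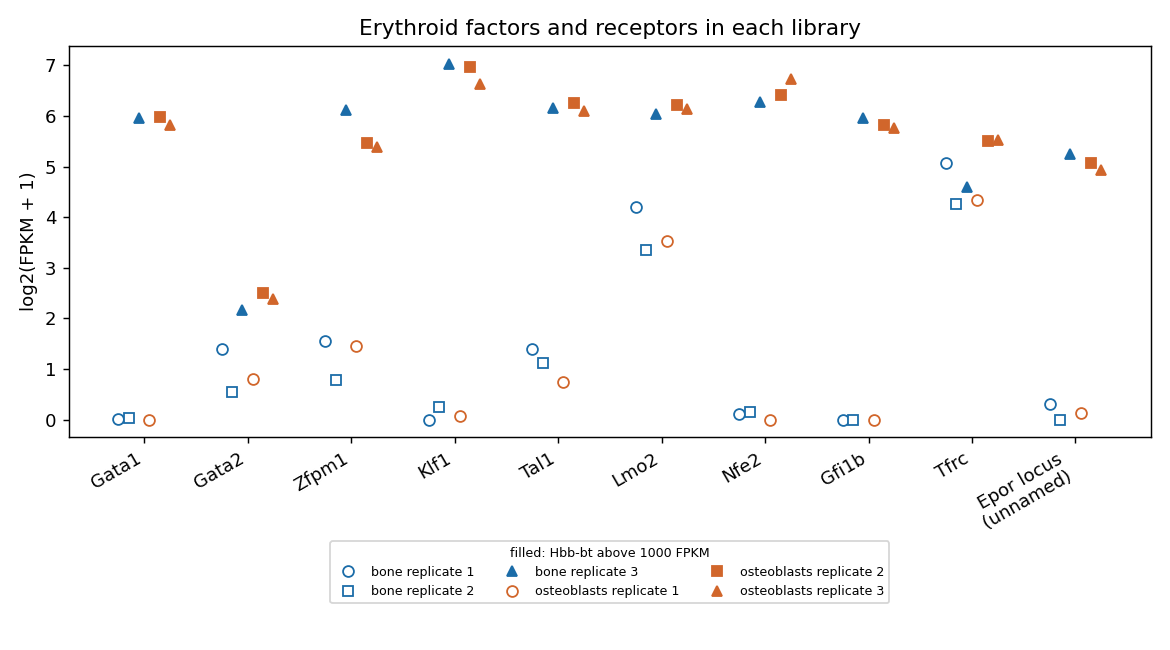
Level of each gene as log2(FPKM + 1) in each of the 6 libraries, blue for bone and orange for osteoblasts, with filled symbols where *Hbb-bt* exceeded 1000 FPKM. The filled symbols lie above the open ones for 8 of the 9 named genes and for the unnamed feature at *Epor*, and they are mixed for *Tfrc*.

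*Klf1*, the activator of beta-globin and of many red cell membrane genes, had the highest level of the 9 genes in bone replicate 3 and in osteoblasts replicate 2. Its feature (Chr. 8 from 84901928 to 84905291, plus strand) stood at 0, 0.180 and 130.02 FPKM in bone and at 0.0488, 124 and 98.8 FPKM in osteoblasts. In the 3 *Hbb-bt*-high libraries it was above 96.4 to 97.1% of the genes with at least 1 FPKM, and in the low ones it did not reach 1 FPKM. *Klf1* was 2.11 times *Gata1* in bone replicate 3 and 2.01 and 1.78 times in osteoblasts replicates 2 and 3. The globin feature varied more, at 268, 276 and 492 times *Klf1* in the same order.

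*Tal1* and *Lmo2*, which bind DNA as one complex, had nearly equal levels in the 3 *Hbb-bt*-high libraries and very different ones in the low libraries. *Tal1* (Chr. 4 from 115056426 to 115071755, plus strand) stood at 1.63, 1.18 and 70.5 FPKM in bone and at 0.670, 75.8 and 67.6 FPKM in osteoblasts. *Lmo2* (Chr. 2 from 103957986 to 103981878, plus strand) stood at 17.4, 9.14 and 64.4 FPKM in bone and at 10.5, 73.6 and 69.2 FPKM in osteoblasts. The ratio of *Tal1* to *Lmo2* was thus 1.10, 1.03 and 0.978 in the high libraries, and 0.064 to 0.129 in the low ones. *Lmo2* was not a low gene in the latter, where it stood above 68.3 to 73.2% of the genes with at least 1 FPKM. Its feature overlaps one named *4931422A03Rik* on the minus strand, from 103966943 to 104028361. How reads were divided between them was not tested.

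Endothelial cells use *Tal1* and *Lmo2* too. The 7 endothelial markers, among them *Cdh5*, *Pecam1* and *Kdr*, summed to 2.88 to 11.5 FPKM in the *Hbb-bt*-low libraries and to 89.3 to 104 FPKM in the high ones, and none was at 0 in all 3 low libraries. The *Egfl7* feature, which made up 6.26 of the 11.5 FPKM in bone replicate 1, also spans *Agpat2* and *Dipk1b*. The 5 macrophage markers, among them *Adgre1*, *Csf1r* and *C1qa*, went the other way, with 1327 to 2636 FPKM in the low and 393 to 518 FPKM in the high libraries, and none was at 0. The part of either cell type in the *Tal1* and *Lmo2* levels was not tested.

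*Gfi1b*, a repressor of erythroid and megakaryocytic cells, had the pattern of *Gata1*. Its feature (Chr. 2 from 28609450 to 28621982, minus strand) was listed at 0 in the 3 *Hbb-bt*-low libraries. It stood at 61.2 FPKM in bone replicate 3 and at 55.8 and 53.2 FPKM in osteoblasts replicates 2 and 3. Its ratio to *Gata1* was 0.995, 0.902 and 0.958 in these libraries, the closest to constant of the ratios with *Gata1* given here.

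*Nfe2*, the blood-specific subunit of NF-E2, which acts in globin loci and in platelet formation, was highest in osteoblasts replicate 3. Its feature (Chr. 15 from 103248212 to 103258403, minus strand) stood at 0.0736, 0.110 and 76.3 FPKM in bone and at 0, 84.8 and 105 FPKM in osteoblasts. In osteoblasts replicate 3 it passed *Klf1* and was 1.89 times *Gata1*, against 1.24 and 1.37 times in bone replicate 3 and osteoblasts replicate 2. Megakaryocytes use both *Gfi1b* and *Nfe2*. The 7 megakaryocyte markers with a named feature, *Pf4*, *Itga2b* and *Gp1bb* among them, summed to 53.5 to 120 FPKM in the low libraries, where *Ppbp* was at 0, and to 715 to 868 FPKM in the high ones, and their part in these levels was not tested. The feature of *Itga2b* also spans *Gpatch8*, and that of *Gp1bb* spans *Septin5*.

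The transferrin receptor *Tfrc*, which takes up iron in red cell precursors and in most dividing cells, was the one named gene here whose 3 highest values were not those of the *Hbb-bt*-high libraries. Its feature (Chr. 16 from 32608920 to 32632794, plus strand) stood at 32.8, 18.2 and 23.3 FPKM in bone and at 19.4, 44.6 and 45.2 FPKM in osteoblasts. Bone replicate 1, with little *Hbb-bt*, had more *Tfrc* than bone replicate 3. Scaled to the sum of named genes, *Tfrc* was between 32.3 and 35.9 in 5 libraries, and bone replicate 3 alone was lower, at 17.3. As TPM it was not near constant, at 14.5 to 39.8, with bone replicate 2 lowest. The scaling to named genes left *Lmo2* at 16.7 to 19.0 in the *Hbb-bt*-low and 47.8 to 55.6 in the high libraries. In bone replicate 3 *Tfrc* was 0.179 times *Klf1*, against 0.359 and 0.457 times in osteoblasts replicates 2 and 3. The 4 markers of dividing cells, such as *Top2a*, *Ccnb1* and *Cdk1*, summed to 106 FPKM in bone replicate 3, to 124 and 128 FPKM in osteoblasts replicates 2 and 3 and to 12.9 to 29.5 FPKM in the low libraries, and their part in the *Tfrc* level was not tested.

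**Figure D2:**
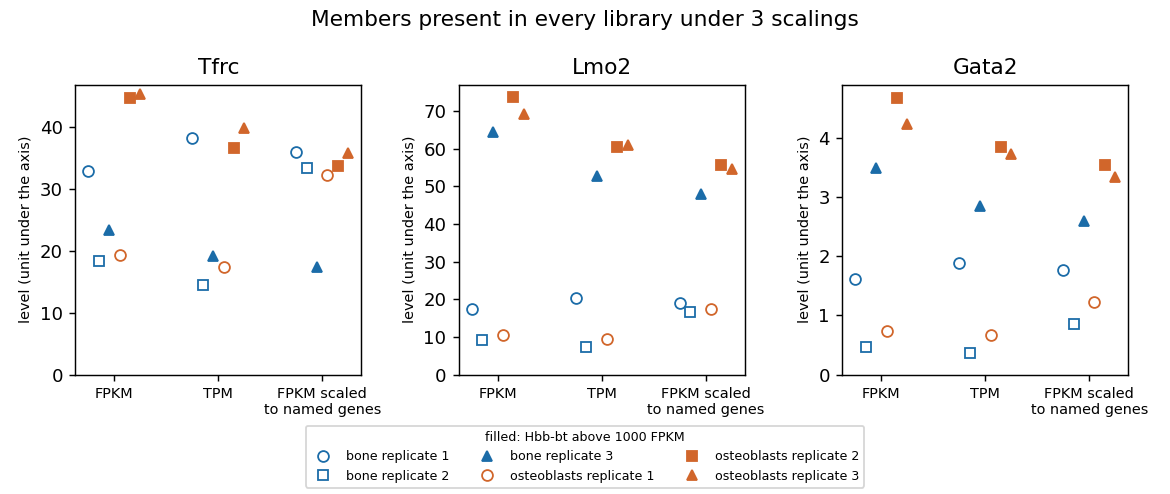
Levels of *Tfrc*, *Lmo2* and *Gata2* in each library as FPKM, as TPM and as FPKM scaled to the sum of named genes, with blue for bone, orange for osteoblasts and filled symbols where *Hbb-bt* exceeded 1000 FPKM. Scaled to named genes, 5 libraries lie between 32.3 and 35.9 for *Tfrc* with bone replicate 3 at 17.3, while the filled symbols stay above the open ones for *Lmo2* and *Gata2*.

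The erythropoietin receptor could be followed only by position. An unnamed feature on the minus strand of Chr. 9 from 21958897 to 21963506 covers 98.5% of the span that RefSeq gives to *Epor* (21958897 to 21963576). It stood at 0.229, 0 and 37.2 FPKM in bone and at 0.0865, 32.4 and 29.5 FPKM in osteoblasts. The high values fell in the same 3 libraries as those of *Gata1*, with bone replicate 3 highest. Since it has no name, this feature was not among the genes tested.

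Side by side, 8 of the 9 named genes had their 3 highest values in the 3 *Hbb-bt*-high libraries, as had 38.4% of the 12112 genes tested. The lowest of those values was at least 10 times the highest of the others for 6 of the 9 (*Gata1*, *Klf1*, *Gfi1b*, *Tal1*, *Nfe2* and *Zfpm1*), as for 6.06% of all. It was 41.4 times as high for *Tal1* and 21.2 times for *Zfpm1*, or 24.4 and 11.2 times after scaling to named genes, and 3.71 times for *Lmo2*. *Hbb-bt* is itself a red cell gene and the members were picked with its values known, so these counts describe the libraries and are not a test. All 9 genes passed the filter of 1 FPKM on average, which those near 0 in 3 libraries did through the other 3.

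The genes most like *Gata1* and *Klf1* over the 6 libraries were found by the root mean square difference in log2(FPKM + 1), each gene centred on its own mean. For *Gata1* they were *Tspo2*, a gene of red cell precursors (0.044), *Gfi1b* (0.051) and *Chil1* (0.055). For *Klf1* they were *Epx*, the peroxidase of eosinophils (0.109), *Cytl1* (0.126) and *Trim10* (0.155). Each of these 6 genes was at 0 in the same 3 libraries, and *Epx* is a gene of white cells, so 6 libraries do not set red cell genes apart from those of other blood cells.

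The design compares osteoblasts with bone, and no difference between these labels passed the test for any of the 9 genes. Values under the labels overlapped for all 9, whereas 0.479% of the 12112 genes tested had all osteoblast values above all bone values and 0.438% had the reverse. On the scale of log2(FPKM + 1) the difference, osteoblasts minus bone, was 2.21 for *Nfe2* (standard error 2.04, limma adjusted p = 0.999), 2.14 for *Klf1* (standard error 2.18) and 1.93 for *Gata1* (standard error 1.90). For *Gfi1b*, *Tal1* and *Zfpm1* it was 1.88, 1.48 and 1.28. For *Lmo2*, *Gata2* and *Tfrc* it was 0.77, 0.53 and 0.48, with 95% intervals from -1.27 to 2.81, from -0.86 to 1.91 and from -0.71 to 1.67. The adjusted p from limma was 0.999 for each of the 9.

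Across the whole table limma called 0.0% of genes in either direction, 0 of the 9 included, and 17 genes, none of the 9, had an unadjusted p under 0.05. The difference was above 0 for 9 of the 9 genes, as for 62.6% of all genes, and at least 1 for 6 of the 9, as for 4.43% of all. The median was 1.48 over the 9 and 0.12 over all. Of the osteoblast libraries 2 were *Hbb-bt*-high and of the bone libraries 1 was, and the label and this difference in blood genes were not separated by any test.

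**Figure D3:**
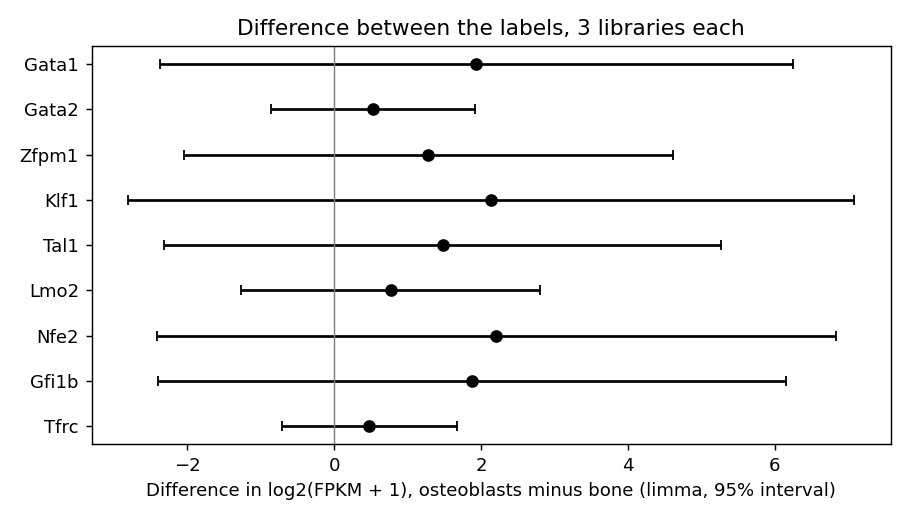
Difference in log2(FPKM + 1) between the 3 osteoblast and the 3 bone libraries for the 9 named genes, osteoblasts minus bone, with 95% intervals from limma. Each interval includes 0, and the intervals are widest for *Klf1*, from -2.81 to 7.08, and narrowest for *Tfrc*.

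The differences depended on which library was left out. Without osteoblasts replicate 1, limma called 5 of the 9 genes higher in osteoblasts, as it did 312 of all 12362 genes then tested (2.52%, with 0.388% called lower), with differences of 4.40 for *Nfe2* (limma adjusted p = 0.0033), 4.38 for *Klf1* (limma adjusted p = 0.0057), 3.90 for *Gata1* (limma adjusted p = 0.0069), 3.81 for *Gfi1b* (limma adjusted p = 0.0081) and 3.29 for *Tal1* (limma adjusted p = 0.019). For 4 of these 5 the labels still overlapped, since bone replicate 3 had more *Klf1* and *Gfi1b* than both remaining osteoblast libraries and its *Gata1* and *Tal1* lay between theirs. *Nfe2* was the exception, with 76.3 FPKM in bone replicate 3 against 84.8 and 105 FPKM. In that fit limma used 53.3 degrees of freedom per gene against 8.98 with all 6 libraries, and the standard error of *Gata1* was 0.88 against 1.90. Without bone replicate 3 the differences were about as large, at 4.44 for *Klf1*, 4.26 for *Nfe2*, 3.92 for *Gata1* and 3.86 for *Gfi1b* (limma adjusted p = 0.055 for each), and limma called none of the 9 and, of all genes then tested, 0.00841% higher and 0.0168% lower. Without any 1 of the other 4 libraries they were smaller than with all 6 for *Gata1*, at 0.91 to 0.99, and for *Nfe2*, at 1.04 to 1.20. The smallest differences of *Zfpm1* and *Lmo2*, 0.27 and 0.18, were those without bone replicate 2.

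Partners of the GATA and TAL1 complexes were present in every *Hbb-bt*-high library, and 6 of the 10 with a named feature had their 3 highest values there, against 38.4% of all genes tested. *Tcf12*, *Runx1*, *Kdm1a* and *Rcor1* did not. *Ldb1*, the bridging protein of the complex, stood at 43.9 to 45.9 FPKM in the high libraries and at 12.3 to 21.0 FPKM in the low ones. *Cbfa2t3*, the corepressor ETO2, stood at 5.75 to 6.57 FPKM in the high libraries and at most at 0.185 FPKM in the low ones. *Tcf3*, the E protein that pairs with TAL1, stood at 46.0 to 54.3 FPKM and 7.00 to 14.6 FPKM. Between the labels limma called 0 of the 10, with a median difference of 0.30.

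Among 11 other hematopoietic transcription factors with a named feature, 8 had that distribution, against 38.4% of all genes tested. *Fli1*, *Cebpa* and *Bach1* did not. *Cebpa* stood at 79.7, 35.2 and 1.76 FPKM in bone and at 3.56, 22.9 and 19.3 FPKM in osteoblasts. *Myb*, a factor of dividing progenitors, stood at 17.6 to 25.6 FPKM in the high libraries and at most at 0.016 FPKM in the low ones. *Gfi1*, the relative of *Gfi1b* in white cells, stood at 7.55 to 10.1 FPKM and at most at 0.101 FPKM. *Spi1*, the PU.1 factor of myeloid cells, was present throughout, at 48.4 to 50.8 FPKM in the high and 18.7 to 38.6 FPKM in the low libraries. Of these 11, limma called 0, with a median difference of 0.46.

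Most genes of erythropoietin signaling were above the floor in all libraries. *Cish* was below it in bone replicate 2 (0.050 FPKM) and *Erfe* in osteoblasts replicate 1 (0.104 FPKM). Of 12 with a named feature 10 were tested, of which 6 had their 3 highest values in the high libraries, against 38.4% of all genes tested. limma called 0 of the 10, with a median difference of 0.26. The kinase *Jak2* stood at 4.25 to 9.86 FPKM in the high and 5.73 to 12.2 FPKM in the low libraries, and its target *Stat5a* at 13.0 to 18.9 FPKM and 4.60 to 6.99 FPKM. The feature named *Epo* stood at 49.4 to 156 FPKM over the 6 libraries, but it spans 3 other coding genes, *Pop7*, *Gigyf1* and *Gnb2*, so its level cannot be given to the hormone, although it is counted among the 6.

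In the list of iron uptake, which leaves out *Tfrc*, 4 of 10 genes had their 3 highest values in the high libraries, a share close to the 38.4% of all genes tested. *Ireb2*, *Aco1*, *Hfe*, *Fbxl5*, *Fth1* and *Ftl1* did not. *Hfe* stood at 4.36 to 6.02 FPKM in the high and 13.2 to 28.5 FPKM in the low libraries, and *Ftl1* at 2362 to 2494 FPKM and 3092 to 6367 FPKM. The list, most of it *Ftl1*, summed to 3017 to 3149 FPKM in the high and 3584 to 7277 FPKM in the low libraries. *Tfr2*, the second transferrin receptor, stood at 13.8 to 15.2 FPKM in the high and 0.783 to 2.27 FPKM in the low libraries. *Steap3*, the reductase of endosomal iron, stood at 18.1 to 22.0 FPKM and 3.45 to 8.23 FPKM, and *Slc25a37*, mitoferrin, at 57.7 to 80.8 FPKM and 2.65 to 5.39 FPKM in a feature that spans 3 other genes. limma called 0 of the 10, with a median difference of 0.23.

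All 22 erythroid target genes with a named feature, *Hbb-bt* included, had their 3 highest values in the *Hbb-bt*-high libraries, 19 of them by at least 10 times. Of all genes tested, 38.4% had the former and 6.06% the latter. *Hbb-bt* defines these libraries, so its own place in both counts was fixed in advance. *Alas2*, the first enzyme of heme synthesis in red cells, stood at 732 to 910 FPKM in the high libraries and at most at 0.208 FPKM in the low ones. *Epb42*, a protein of the red cell membrane skeleton, stood at 26.7 to 37.2 FPKM and was at 0 in each low library, as were *Trim10*, *Cldn13* and *Tspo2*. The list summed to 38399 to 52984 FPKM in the high libraries, most of it *Hbb-bt*, and to 55.0 to 113 FPKM in the low ones, most of it *Aqp1*, *Fech* and *Urod*, which other cells also use. Between the labels limma called 0 of the 22, with a median difference of 1.95.

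Genes of other cell types were high in the same 3 libraries. The 9 neutrophil markers, *Elane*, *Mpo* and *Ngp* among them, summed to 14482 to 17478 FPKM in the high and 0.497 to 5.79 FPKM in the low libraries, where *Elane* and *Fcnb* were at 0. The 6 B cell markers summed to 108 to 120 FPKM and 0 to 0.264 FPKM, with *Cd79a*, *Pax5*, *Cd79b* and *Ms4a1* at 0 in the low libraries. The 3 skeletal muscle markers, *Acta1*, *Ckm* and *Tnnt3*, summed to 943 FPKM in bone replicate 3, to 221 and 461 FPKM in osteoblasts replicates 2 and 3, and to 1.09 FPKM at most in the low libraries, where *Tnnt3* was at 0.

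Osteoblast and osteocyte genes were present under both labels. The 5 osteoblast markers, *Col1a1*, *Ibsp* and *Alpl* among them, summed to 1676 to 2404 FPKM in the high and 2769 to 4530 FPKM in the low libraries. The 4 osteocyte markers summed to 45.4 to 51.7 FPKM and 55.3 to 133 FPKM. Most of the latter was *Dmp1*, at 22.5 to 24.2 FPKM in the high and 50.0 to 127 FPKM in the low libraries. *Phex* overlapped, at 4.61 to 6.71 FPKM and 5.14 to 8.19 FPKM. *Sost*, the osteocyte inhibitor of Wnt signaling, went the other way, at 15.8 to 22.7 FPKM in the high libraries and at most 0.198 FPKM in the low ones. The sums were thus lower where the erythroid factors were high, while *Sost* was higher there. Not every osteoblast marker followed the sum. *Ibsp* and *Alpl* were lower in each high library than in any low one, while the values of *Col1a1* and *Sp7* overlapped. *Runx2* stood at 10.8 to 15.1 FPKM in the high and 5.78 to 10.9 FPKM in the low libraries. The part of these cells in the results was not tested.

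**Figure D4:**
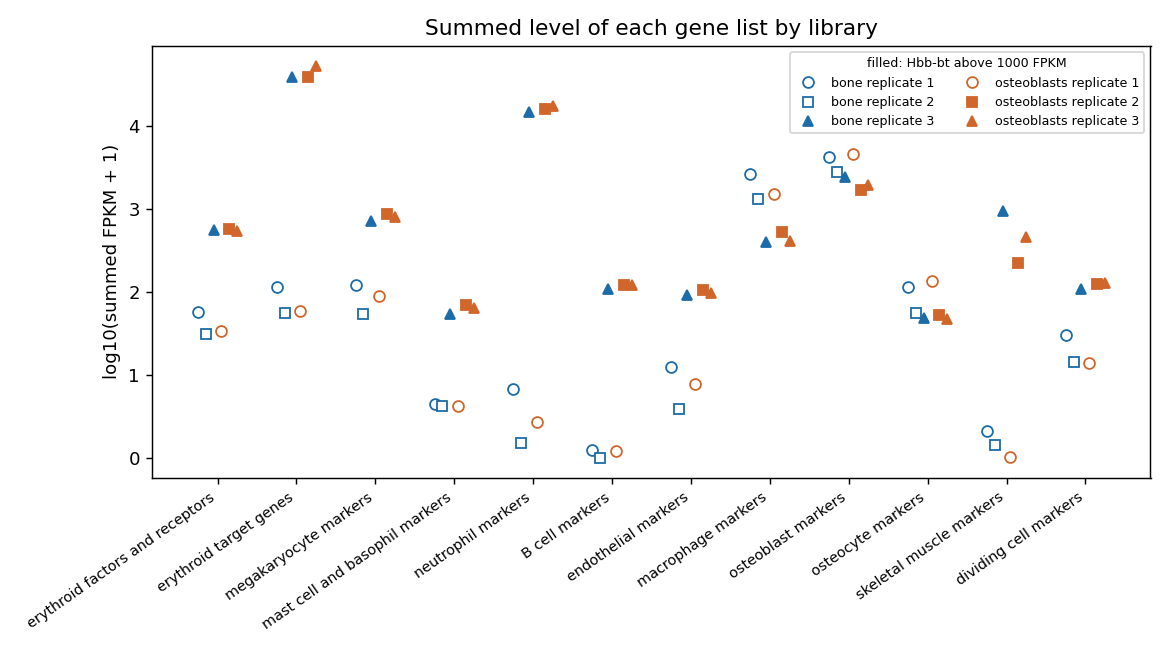
Summed FPKM of each gene list in each library as log10(sum + 1), with blue for bone, orange for osteoblasts and filled symbols where *Hbb-bt* exceeded 1000 FPKM. The filled symbols lie far above the open ones for the erythroid, neutrophil and B cell lists and below them for the macrophage, osteoblast and osteocyte lists.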

How the data were processed

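Libraries were made with a TruSeq kit that keeps no strand. The authors aligned paired reads of 75 bp to GRCm38 (HISAT2 2.0.5) and quantified features with StringTie 1.3.3, per the labels and methods. They deposited for each library the coverage (mean depth per base), FPKM and TPM of each feature, and no read counts. Deposited FPKM are relative to mapped reads and deposited TPM to the sum of a library. StringTie joined some neighbouring genes. Without strand, overlapping genes cannot be told apart, such as *Gata1* and *Gata2* and the lncRNAs that overlap them.

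Features of one name were summed, with groups and replicate numbers from the labels. limma 3.58.1 (R 4.3.3, trend) was run two-sided on log2(FPKM + 1), which understates changes of low genes, for named genes averaging at least 1 FPKM, with Benjamini-Hochberg adjusted p under 0.05. It was tested on simulated data with a smaller spread within a label than the median of 0.591 found here. That test does not cover labels that mix high and low libraries, as these do. Alternatives covered pseudocount, filter, unit, scaling, trend, block and libraries left out, with coverage in place of FPKM added after seeing the data. Named are the members, the first 3 named features of each list, genes at 0 and the genes most like *Gata1* and *Klf1*, of which some are not reported here. *Aqp1*, *Fech*, *Urod*, *Sost*, *Egfl7*, *Sp7*, *Runx2*, *Cish*, *Erfe* and the complex partners *Tcf12*, *Runx1*, *Kdm1a* and *Rcor1* were named after their values were seen. So were *Ireb2*, *Aco1*, *Hfe*, *Fbxl5*, *Fth1*, *Ftl1*, *Fli1*, *Cebpa* and *Bach1*. Members and lists were chosen with earlier results of these data known.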

Additional observations from a re-analysis of the deposited data

Results flagged for a closer look

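The unnamed feature at the position of *Epor* lies outside the comparison of named genes, yet it stood far above the floor of 3 read pairs on 1 kb in 3 libraries. Its level was 37.2 FPKM in bone replicate 3. The osteoblast replicates 2 and 3 had 32.4 and 29.5 FPKM, and no other library exceeded 0.229 FPKM.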

How the results depend on the processing

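All 162 recomputed differences of the 9 genes between the labels, over 18 alternatives, were above 0, and 157 stayed on the same side of the threshold. The other 5 were *Nfe2*, *Klf1*, *Gata1*, *Gfi1b* and *Tal1* without osteoblasts replicate 1. The number of genes called over the whole table, 0 in the reported fit, lay between 0 and 360 when 1 library was left out, with 360 without osteoblasts replicate 1, 3 without bone replicate 3 and 0 without each of the other 4. A replicate block raised the count to 49 genes (46 higher, 3 lower), none of them among the 9, for which the lowest was *Nfe2* (limma adjusted p = 0.054). Deviations of same-numbered libraries from the mean of their label correlated at 0.84, -0.75 and 0.83. Only 1 of the 3 bone libraries correlated best with its own number. These correlations also carry the difference in blood genes, since bone replicate 2 was *Hbb-bt*-low and osteoblasts replicate 2 was *Hbb-bt*-high. They therefore cannot show whether equal numbers mark the same mouse. The other alternatives called 0 genes. Scaling to the sum of named genes moved the median of all genes from 0.12 to -0.04, and the differences of *Klf1*, *Lmo2* and *Tfrc* were then 1.99, 0.58 and 0.29. The log2 ratio of *Gata1* to *Gata2* differed by 1.41 between the labels and by 0.40 to 2.99 with 1 library left out. With the replicate block it differed by 1.41 (exact sign-flip permutation, p = 0.5), and 3 pairs cannot give a p under 0.05 in that test. The count of 8 genes with their 3 highest values in the libraries with *Hbb-bt* above 1000 FPKM was 8 under TPM, under scaling to named genes and under coverage. Depth limits what can be said of *Gata1*, *Klf1*, *Gfi1b* and *Nfe2* in the 3 libraries where they were at or below the floor. Their values there lay between 0 and 0.180 FPKM, which is not absence. The floor was not matched to the length of each transcript.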
